A study of Mus musculus with 6 samples.

Results

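Genes for the protein subunits of the mitochondrial ribosome were followed in CD8 T cells from tumours. Members were taken by symbol: every gene whose name is Mrpl or Mrps followed by a number, with or without a final letter. This gave 78 of the 40879 genes in the count table, 51 of large subunit proteins and 27 of small subunit proteins, counting Mrps18a and Mrps30 with the large subunit, where their proteins sit, and Mrps36 by its symbol with the small subunit. All 78 passed the filter on low counts. Tumours of the mouse colon carcinoma line MC38-hPD-L1 were taken from C57BL/6N mice on day 12, and CD8 T cells among the tumour-infiltrating lymphocytes were parted by flow cytometry. Biotin+ cells had been tagged with biotin by proximity labelling, in which a light-driven catalyst marks what is near it, and the labels describe them as neighbouring the tumour. Biotin- cells were untagged and are described as distal. Each group held 3 libraries of poly-A RNA, numbered 1 to 3, and both shared the same tumour model, strain and day. The labels do not say whether a number is an animal or a pool of animals, and a p-value here speaks only of the spread among the 6 libraries.

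The mitochondrial ribosome translates the few messenger RNAs made inside mitochondria, all of which encode subunits of the respiratory chain and ATP synthase. Its RNAs come from mitochondrial DNA, but every protein subunit is encoded in the nucleus, made in the cytosol and imported. Some subunits descend from bacterial ribosomal proteins, and others were gained by mitochondria. T cells enlarge their mitochondria and their translation machinery when they are activated and divide.

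Libraries held 16423106 to 19640693 counts, and 13360 genes were tested. CD8 T cell markers took 0.890% to 0.904% of the counts in Biotin+ and 0.535% to 0.714% in Biotin-. Fibroblast and endothelial markers took 0.0304% to 0.0595% in Biotin+ and 0.137% to 0.285% in Biotin-, and macrophage and monocyte markers 0.0352% to 0.104% and 0.0853% to 0.340%. Among 7 epithelial and tumour markers Krt20 was at 0 in every library and Krt8, Krt19 and Cldn4 were at 0 in all Biotin+ libraries, while Epcam, Krt18 and Cdh1 had counts in every library. Cdh1 had 2387, 331 and 321 counts in Biotin+ and 1064, 377 and 171 in Biotin-. The 7 together took 0.0133%, 0.00204% and 0.00234% of the counts in Biotin+ replicates 1 to 3 and 0.00614%, 0.00259% and 0.00160% in Biotin-, with overlap. In bulk samples of this kind, fewer cells of a type and less RNA per cell cannot be told apart. The part of these markers in the results below was not tested.

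The median level of the members was above that of all tested genes, and their levels spanned a 9.75-fold range. Their mean level over the 6 libraries ran from 10.03 CPM (counts relative to library size, scaled by edgeR's TMM factors) for Mrpl1 to 97.8 CPM for Mrpl12, with a median of 33.2 CPM against 20.5 CPM over all tested genes. Mrpl1 is the counterpart of a bacterial stalk protein, and Mrpl12 forms the flexible stalk that recruits translation factors. Behind these values stood 138 to 2416 counts per gene and library. After Mrpl12 the highest were Mrpl4 (96.4 CPM), Mrpl9 (92.2 CPM), Mrpl33 (82.5 CPM) and Mrpl20 (80.4 CPM), all large subunit proteins with bacterial counterparts. The lowest were Mrpl1, Mrpl47 (10.2 CPM) and Mrps27 (13.2 CPM), the last a small subunit protein of the kind that binds RNA.

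Levels were set beside each other per kilobase of transcript, with the median length of a gene's annotated coding transcripts. On that scale they ran from 2.92 CPM per kilobase for Mrpl1 to 182.0 for Mrpl52, a 62.3-fold range that depends on which annotated transcripts these cells use. The median was 27.9 CPM per kilobase for the large subunit and 25.1 for the small. Summed counts of large subunit members were 2.43, 2.42 and 2.38 times those of small subunit members in Biotin+ replicates 1 to 3, and 2.47, 2.49 and 2.51 times in Biotin-. The groups did not overlap, and the mean difference was -0.048 on the log2 scale. This ratio is taken within a library, so it does not depend on scaling between libraries.

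Promoter sequences were available for 69 of the 78 members, as windows from 250 bases before to 50 after an annotated start (RefSeq, build GRCm38.p6). The count table uses another build, GRCm39, so the windows were matched by symbol only. Mrpl4, Mrpl13, Mrpl15, Mrpl19, Mrpl38, Mrpl54, Mrps28, Mrps34 and Mrps35 were not matched. Motifs of 3 factors known to act at genes for mitochondrial proteins were searched on both strands: GCGCA and GCGC parted by any base for NRF1, CCGGAAG for the ETS family, which includes GABP, and AANATGGC for YY1. The searched letters do not contain each other. A match to the ETS letters was present in 26 of 69 members (37.7%), against 19.8% of 10357 tested genes with a window and 9.93% of all 27025 genes in the table. YY1 letters were present in 21 (30.4%) against 10% and 6.96%, and NRF1 letters in 13 (18.8%) against 11% and 5.19%. Among 61 cytosolic ribosomal protein genes the shares were 41.0% for ETS, 18% for YY1 and 8.2% for NRF1 letters. Among 69 genes of nuclear respiratory chain subunits they were 24.6% for each of the 3, and differences between these lists were not tested. Such a match is a description of letters, not of binding.

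The 7 stretches that follow end at the base before the start, on the strand of the gene, with matches to any of these motifs in capitals. They were chosen to show members of high level (Mrpl9, Mrpl12), members at the top (Mrps36, Mrps18c, Mrpl32) and bottom (Mrps27) of the fold changes described below, and the paralog Mrps18a. Mrpl9 (chr3:94443211-94443335, + strand), Mrpl12 (chr11:120484512-120484636, + strand) and Mrpl32 (chr13:14613038-14613162, - strand) hold NRF1 letters. Mrps27 (chr13:99344661-99344785, + strand) holds YY1 and ETS letters and Mrps18a (chr17:46110879-46111003, + strand) ETS letters. Mrps36 (chr13:100744660-100744784, - strand) and Mrps18c (chr5:100798634-100798758, + strand) hold none in this stretch.
Mrpl9: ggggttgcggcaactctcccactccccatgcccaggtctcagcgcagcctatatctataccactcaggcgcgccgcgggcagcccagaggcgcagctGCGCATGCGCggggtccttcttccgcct
Mrpl12: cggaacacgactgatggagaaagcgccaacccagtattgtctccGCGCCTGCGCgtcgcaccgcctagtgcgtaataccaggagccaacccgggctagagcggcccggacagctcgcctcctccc
Mrpl32: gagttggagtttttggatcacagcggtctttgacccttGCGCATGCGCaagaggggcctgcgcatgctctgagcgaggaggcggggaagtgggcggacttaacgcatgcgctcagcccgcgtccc
Mrps36: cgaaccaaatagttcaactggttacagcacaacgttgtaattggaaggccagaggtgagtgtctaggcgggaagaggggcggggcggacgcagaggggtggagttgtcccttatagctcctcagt
Mrps27: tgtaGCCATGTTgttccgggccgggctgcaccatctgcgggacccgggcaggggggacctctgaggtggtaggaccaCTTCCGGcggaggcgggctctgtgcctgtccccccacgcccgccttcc
Mrps18a: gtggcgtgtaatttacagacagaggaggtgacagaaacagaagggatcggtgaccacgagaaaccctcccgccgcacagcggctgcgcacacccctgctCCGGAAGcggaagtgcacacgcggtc
Mrps18c: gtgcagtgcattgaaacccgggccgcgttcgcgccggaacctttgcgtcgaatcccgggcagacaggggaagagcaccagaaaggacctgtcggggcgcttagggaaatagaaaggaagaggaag

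A start on the opposite strand within 1000 bases upstream, which makes a shared promoter region, was annotated for 18 of the 78 members (23.1%) and for 10.1% of 11939 tested protein-coding genes. Mrps18c lies head to head with Helq, Mrps18b with Ppp1r10 and Mrps27 with Ptcd2. Exons of 26 members overlapped those of other annotated genes, and without a stated strand setting their reads cannot be told apart from the neighbour's.

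The design compared Biotin+ with Biotin- cells. By the quasi-likelihood test of edgeR, at an adjusted p below 0.05, 0 of 78 members were higher and 0 lower, where 8.26% of all 13360 tested genes passed (1.53% higher and 6.72% lower). DESeq2 called 1 member higher and 0 lower (3.53% and 10.4% of all genes), and limma-voom 0 in either direction (8.39% of all genes, 1.61% higher and 6.78% lower). At an unadjusted p below 0.05 in edgeR 15 were higher (19.2%, against 8.62% of all genes) and 0 lower (13.9%). Log2 fold changes (Biotin+ over Biotin-) of the members ran from -0.21 to 0.80 with a median of 0.36, beside a median of 0.06 over all tested genes. They were positive for 72 of 78 members (92.3%, against 55.3% of all genes), and for 51 with library size alone (65.4%, against 37.0%). When libraries were scaled to Cd8a or Cd3e they were positive for 0 members, where 4.28% and 4.04% of all genes were positive. The 95% interval lay between -1 and 1, that is within a 2-fold change either way, for 54 of 78 (69.2%, against 47.6% of all genes).

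**Figure D1:**
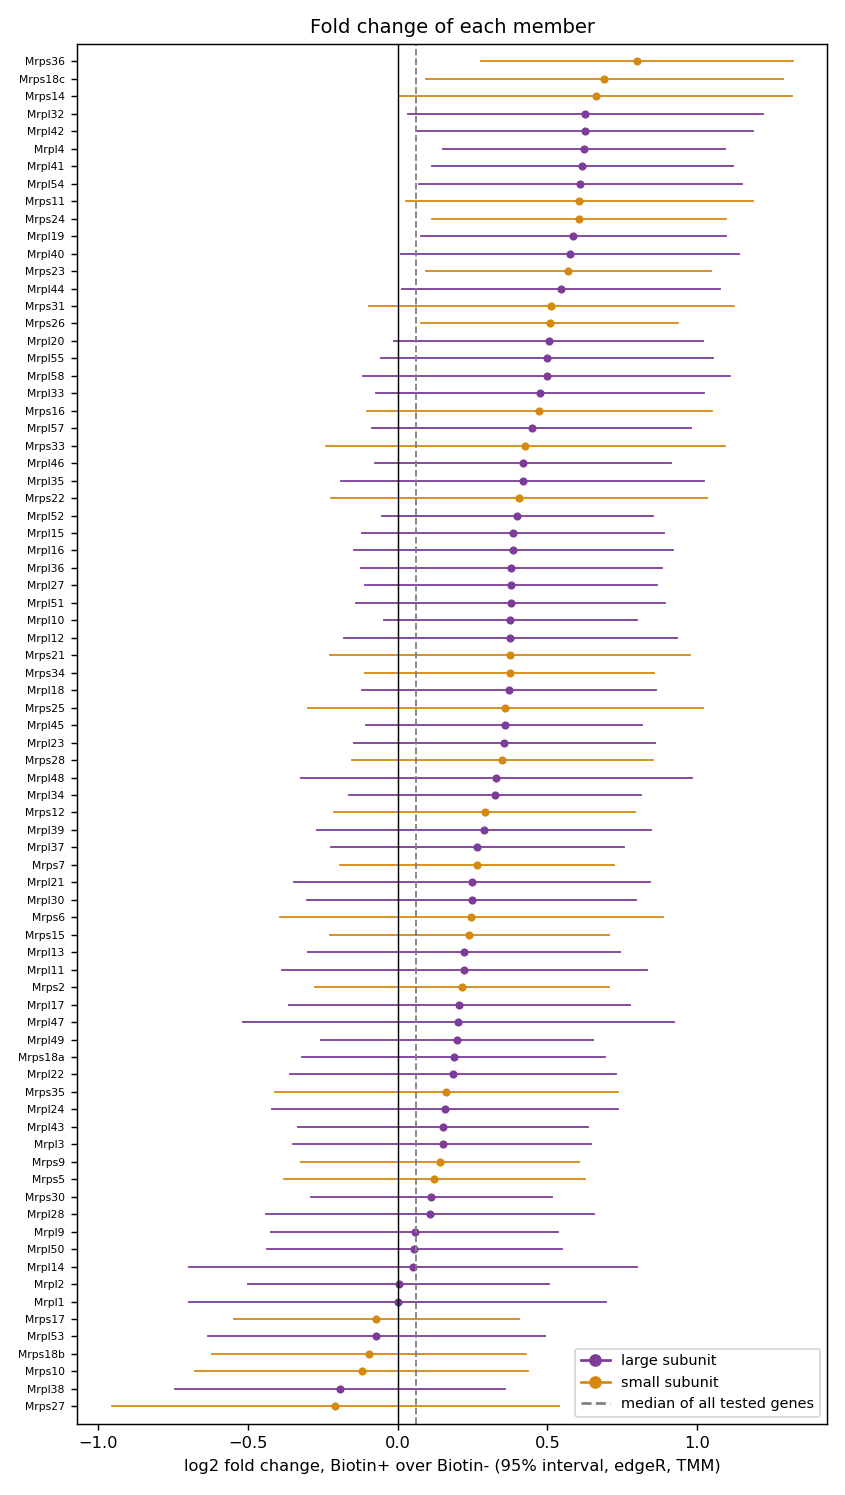
Log2 fold change (Biotin+ over Biotin-, edgeR with TMM scaling, horizontal axis) of each of the 78 members, with points for the estimate, bars for the 95% interval and colours for the subunit; the dashed line marks the median of all tested genes, 0.06. The estimates run from -0.21 for Mrps27 to 0.80 for Mrps36. All 78 are below 0 when libraries are scaled to Cd8a or Cd3e, where only 4.28% and 4.04% of all tested genes are above 0.

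The positive median rested largely on Biotin+ replicate 2. Of the 78 members, 69 were highest in that library, 7 in Biotin- replicate 3 and 1 each in Biotin+ replicate 3 and Biotin- replicate 2. The share of all genes that were highest in each library was not counted. Relative to each gene's mean over the 6 libraries, the members' median log2 CPM was -0.108, 0.552 and 0.058 in Biotin+ replicates 1 to 3, and -0.229, -0.079 and -0.142 in Biotin-. Biotin+ replicate 1 therefore sat among the Biotin- libraries. Without Biotin+ replicate 2 the members' median log2 fold change was 0.096, beside 0.018 over all genes. In that fit 52 of 78 members were positive (66.7%, against 52.0% of the 13346 genes that were also in the main fit). The same library had the lowest TMM factor (0.815), the highest share of cytosolic ribosomal protein counts (18.5%, against 13.2% to 14.3% in the other 5) and the highest share of cell cycle marker counts (0.255%, against 0.146% to 0.176%). Their part in the result was not tested. As a share of all counts, with no scaling, the members took 0.276%, 0.358% and 0.314% in Biotin+ and 0.279%, 0.283% and 0.316% in Biotin-, and these ranges overlapped.

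**Figure D2:**
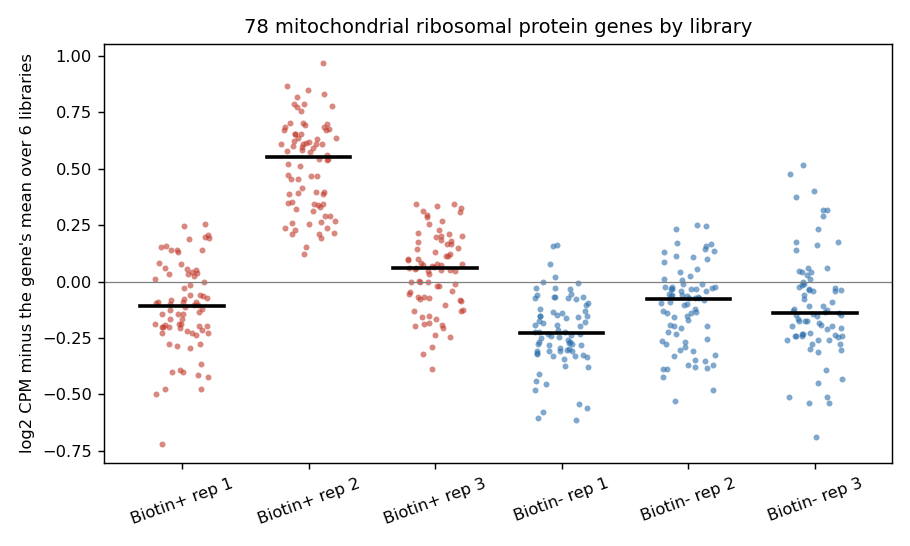
Log2 CPM of each of the 78 members minus that gene's mean over the 6 libraries (vertical axis), by library, with Biotin+ in red, Biotin- in blue and the median of the members as a black line. Biotin+ replicate 2 stands apart with a median of 0.552, while Biotin+ replicate 1 (-0.108) lies within the range of the Biotin- medians.

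With the replicate number as a block, 3 members were higher (3.85%, against 5.6% of all genes) and 0 lower: Mrps36, Mrpl32 and Mrps18c. No label says that the numbers pair the libraries, and the pairing was inferred from these same data. Group ranges of CPM did not overlap, with Biotin+ higher, for 24 of 78 members (30.8%, against 13.4% of all genes), and for 0 with Biotin+ lower (15.9% of all genes).

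Mrps36 had the largest fold change. It was named as a small subunit protein, but its product is now known as a part of the 2-oxoglutarate dehydrogenase complex of the citric acid cycle. It measured 19.1, 24.4 and 20.1 CPM in Biotin+ replicates 1 to 3 and 12.4, 13.2 and 11.03 CPM in Biotin-. All Biotin+ libraries were above all Biotin- libraries, and replicate 2 was the highest of each group. The log2 fold change was 0.80 ± 0.24 (SE, 95% interval 0.28 to 1.32, edgeR adjusted p = 0.0658; 0.0256 with the replicate block), and DESeq2 gave an adjusted p of 0.0221. Of its 75-base transcript windows 22.6% also occur in transcripts of other genes, its annotated pseudogenes Mrps36-ps1 and Mrps36-ps2 among them, and how reads from these windows were counted is not known. Scaled to Cd8a the log2 fold change was -0.16 (edgeR adjusted p = 0.693).

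Mrpl32 encodes a large subunit protein that is cut by the m-AAA protease of the inner membrane before it joins the ribosome. It measured 40.8, 57.8 and 37.5 CPM in Biotin+ and 23.4, 39.8 and 24.97 CPM in Biotin-. The groups overlapped, since Biotin- replicate 2 exceeded Biotin+ replicate 3, but within each number the Biotin+ library was higher. Its log2 fold change was 0.63 ± 0.27 (SE, edgeR adjusted p = 0.195; 0.0382 with the replicate block). Scaled to Cd8a it was -0.29 (edgeR adjusted p = 0.406).

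Mrps18a, Mrps18b and Mrps18c are paralogs of a single bacterial small subunit protein. The product of Mrps18c keeps the bacterial place, that of Mrps18b sits elsewhere in the small subunit and that of Mrps18a in the large subunit. Mrps18c measured 35.7, 69.1 and 44.9 CPM in Biotin+ and 25.1, 35.6 and 32.1 CPM in Biotin-. Its lowest Biotin+ library barely exceeded its highest Biotin- library, and the log2 fold change was 0.69 ± 0.27 (SE, edgeR adjusted p = 0.157; 0.0394 with the replicate block).

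Mrps18b measured 16.5, 23.8 and 18.8 CPM in Biotin+ and 22.5, 18.3 and 22.2 CPM in Biotin-, with overlapping groups (-0.10 ± 0.24 SE on the log2 scale, edgeR adjusted p = 0.855). Mrps18a measured 25.03, 34.1 and 33.2 CPM in Biotin+ and 25.7, 23.1 and 32.2 CPM in Biotin-, again overlapping (0.19 ± 0.23 SE, adjusted p = 0.682 by edgeR). Of the Mrps18b windows, 49.8% are shared with other annotated transcripts, of the Mrps18c windows 8.23%, and of the Mrps18a windows 0.

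Ratios between paralogs within a library need no scaling. There were 2.17, 2.90 and 2.39 Mrps18c counts per Mrps18b count in Biotin+ replicates 1 to 3 and 1.11, 1.95 and 1.44 in Biotin-, so every Biotin+ library was above every Biotin- library. The mean log2 ratio was 1.30 ± 0.21 in Biotin+ and 0.55 ± 0.40 in Biotin- (SD, n = 3; two-sided exact permutation p = 0.1, the smallest that 3 against 3 allows, and 0.3 adjusted over the 3 pairs). The Mrps18c to Mrps18a ratio (exact permutation p = 0.3) and the Mrps18a to Mrps18b ratio (exact permutation p = 0.2) overlapped between groups. These tests do not use the pairing by number, and within each number all 3 ratios were higher in the Biotin+ library.

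**Figure D3:**
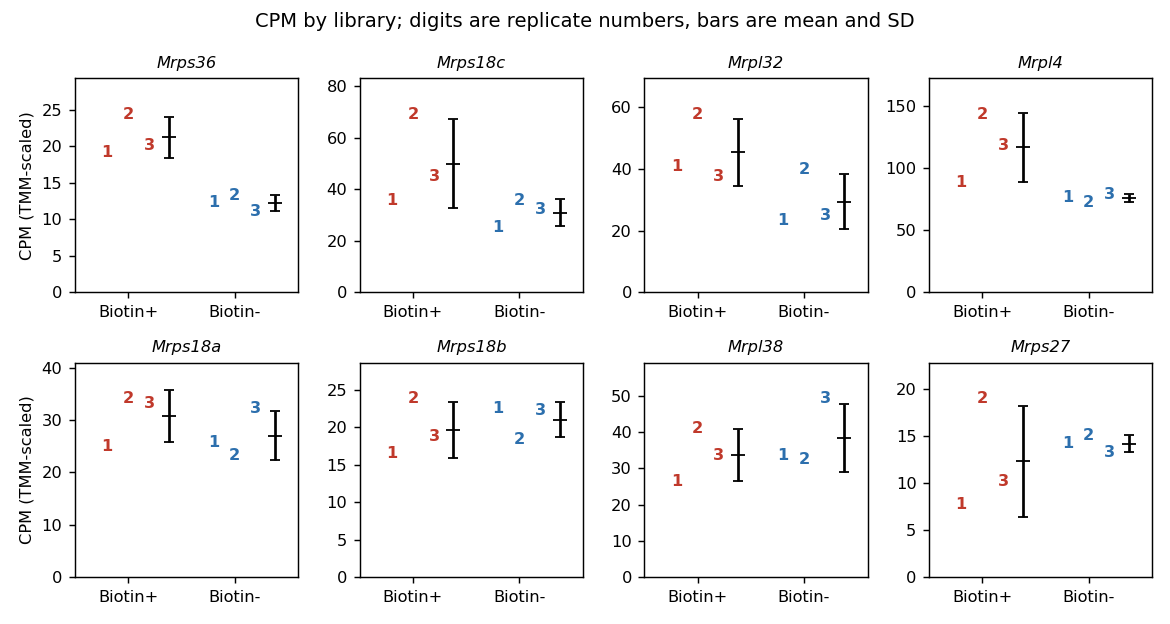
CPM (TMM-scaled, vertical axis) of 8 members by group, with the replicate number of each library as a digit, Biotin+ in red, Biotin- in blue, and bars for the mean and SD (n = 3). In Mrps36, Mrps18c and Mrpl4 all Biotin+ digits lie above all Biotin- digits, while in Mrpl32, Mrps18a, Mrps18b, Mrpl38 and Mrps27 the groups overlap. Scaled to Cd8a or Cd3e, the log2 fold changes of all 8 are below 0, where only 4.28% and 4.04% of all tested genes are above 0.

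Among the other members near the top, Mrpl42 measured 27.6, 43.3 and 30.9 CPM in Biotin+ and 18.2, 27.3 and 20.5 CPM in Biotin- (log2 fold change 0.62 ± 0.25 SE, edgeR adjusted p = 0.173). Mrps14 measured 43.1, 76.7 and 33.1 CPM against 28.1, 35.6 and 32.97 CPM (0.66 ± 0.30 SE, edgeR adjusted p = 0.218). Mrpl42 is a protein gained by mitochondria and Mrps14 the counterpart of a bacterial small subunit protein. The Mrpl42 groups did not overlap, while the Mrps14 groups did.

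Mrpl4, which lines the exit tunnel for the growing protein, measured 88.6, 143.8 and 118.5 CPM in Biotin+ and 76.8, 72.3 and 78.8 CPM in Biotin-. All Biotin+ libraries were higher, and the log2 fold change was 0.62 ± 0.21 (SE, edgeR adjusted p = 0.106). Without Biotin+ replicate 1 it passed (edgeR adjusted p = 0.0492), the 1 member called higher with 0 lower in that fit (6.37% of all genes passed, 1.45% higher and 4.92% lower). The most abundant member, Mrpl12, had overlapping groups (77.7, 151.0 and 102.6 CPM against 90.4, 72.5 and 92.3 CPM).

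At the other end, 6 members had negative log2 fold changes and none passed. Mrps27 measured 7.71, 18.9 and 10.2 CPM in Biotin+ and 14.2, 15.1 and 13.2 CPM in Biotin- (log2 fold change -0.21 ± 0.34 SE, edgeR adjusted p = 0.769). Biotin+ replicates 1 and 3 were below every Biotin- library and Biotin+ replicate 2 above them all. Its log2 fold change was -0.69 without Biotin+ replicate 2 (edgeR adjusted p = 0.179) and 0.04 without Biotin+ replicate 1. Mrpl38 measured 26.4, 40.9 and 33.7 CPM against 33.6, 32.5 and 49.2 CPM (-0.19 ± 0.25 SE), and Mrps10 17.3, 29.0 and 24.04 CPM against 23.2, 23.2 and 30.1 CPM (-0.12 ± 0.25 SE). Mrpl53, at -0.07 ± 0.25 (SE), shared 100.0% of its windows with another annotated transcript and is uncertain.

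The members were next split by subunit, origin and promoter letters. The median log2 fold change was 0.36 for the 51 large subunit members (49 positive) and 0.36 for the 27 small subunit members (23 positive). It was 0.28 for the 48 members with a bacterial counterpart and 0.39 for the 30 without. Members with and without an NRF1 match had medians of 0.36 and 0.34, those with and without an ETS match 0.37 and 0.29, and those with and without a YY1 match 0.29 and 0.36. The 22 members with over 10% of windows shared had a median of 0.29, and the other 56 of 0.37. Scaled to Cd8a or Cd3e, all 78 members were below 0, so each of these medians was too. Most tested genes were also below 0 there, with 4.28% and 4.04% positive.

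Set against the T cell genes Cd8a (the coreceptor of the sorted cells) and Cd3e (a chain of the T cell receptor complex), the members turned to lower. Cd8a measured 1226, 1289 and 1162 CPM in Biotin+ and 591, 865 and 502 CPM in Biotin-, and Cd3e 331, 422 and 298 CPM against 173, 226 and 138 CPM. Neither pair of groups overlapped. Both genes were higher in Biotin+ in edgeR (log2 fold changes 0.91 ± 0.24 and 0.97 ± 0.24 SE, adjusted p = 0.0467 and 0.0324). The Cd8a call was lost without any single library other than Biotin- replicate 2 (adjusted p = 0.0694 to 0.216). That of Cd3e was lost without replicates 1 and 2 of Biotin+ or replicates 1 and 3 of Biotin- (adjusted p = 0.0522 to 0.15). Cd8a counts per Cd3e count were 3.70, 3.06 and 3.90 in Biotin+ and 3.42, 3.83 and 3.63 in Biotin-, and these overlapped.

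Summed over the 78 members there were 229.5, 341.1 and 269.2 counts per 100 Cd8a counts in Biotin+ replicates 1 to 3 and 436.8, 320.4 and 559.7 in Biotin-. Biotin- replicate 2, with the highest Cd8a level of its group, lay below Biotin+ replicate 2, so the groups overlapped. Per 100 Cd3e counts the sums were 849.3, 1042 and 1051 in Biotin+ and 1495, 1225 and 2031 in Biotin-, with no overlap. Single members did not overlap, with Biotin+ lower, in 31 of 78 cases per Cd8a count (39.7%, against 59.4% of all genes) and in 53 of 78 per Cd3e count (67.9%, against 64.4%).

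**Figure D4:**
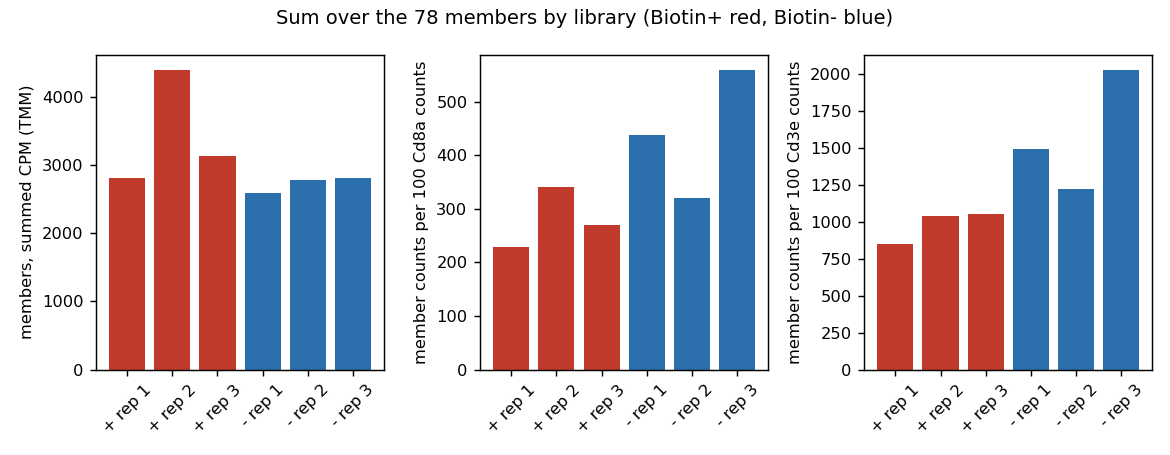
Sum over the 78 members in each library, as TMM-scaled CPM (left), as counts per 100 Cd8a counts (middle) and as counts per 100 Cd3e counts (right), with Biotin+ in red and Biotin- in blue and axes from 0. Biotin+ replicate 2 is the tallest bar on the left at 4397 CPM, and on the right the 3 Biotin+ bars (849.3 to 1051) lie below the 3 Biotin- bars (1225 to 2031).

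In a fit with libraries scaled to Cd8a, all 78 members had negative log2 fold changes (median -0.64) and 15 were called lower (19.2%), where 47.8% of all genes were called lower and the median of all genes was -0.91. None was higher (0.12% of all genes). Scaled to Cd3e, 19 were lower (24.4%, against 46.9% of all genes) and 0 higher (0.0898%), with a median of -0.69 beside -0.93 over all genes. The members lay above the median of all genes by 0.30 with TMM, 0.26 with library size alone, 0.27 with Cd8a and 0.24 with Cd3e. A change of scaling shifts all genes by nearly the same amount, so the likeness of these values was fixed in advance. With TMM the difference was 0.08 without Biotin+ replicate 2 and 0.05 without both replicates 2. With the replicate block 29 members were lower relative to Cd8a (37.2%, against 60.1% of all genes, where 60.3% passed in either direction and 0.277% were higher) and 60 relative to Cd3e (76.9%, against 74.8%, with 75.2% in either direction and 0.427% higher). No member was higher in either. Without the block, the counts relative to Cd8a and Cd3e (15 and 19) changed when single libraries were left out. The share of all genes called lower in those fits was not counted. Relative to Cd8a the count was 1, 13 and 3 when Biotin+ replicates 1, 2 and 3 were left out in turn, and 4, 52 and 0 for the Biotin- replicates. Relative to Cd3e it was 0, 5 and 9 for the Biotin+ replicates and 4, 44 and 0 for the Biotin- replicates, in the same order.

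Members lower relative to both T cell genes numbered 14, and those lower relative to either 20. The shares of all genes lower by both or by either were not counted. With each alone, 47.8% (Cd8a) and 46.9% (Cd3e) of all genes were lower, so these members do not stand out as a subset. Mrpl38 had the lowest log2 fold change relative to Cd8a in the fit without the replicate block (with it, Mrps27 had). It stood at 2.15, 3.18 and 2.90 counts per 100 Cd8a counts in Biotin+ and 5.68, 3.76 and 9.81 in Biotin-. The groups did not overlap (log2 fold change -1.23, edgeR adjusted p = 0.015). Mrps27 stood at 0.629, 1.47 and 0.876 against 2.40, 1.74 and 2.64 per 100 Cd8a counts, also without overlap (-1.19, edgeR adjusted p = 0.0286). Mrpl9, among the most abundant members, stood at a log2 fold change of 0.06 with TMM and of -0.89 relative to Cd8a (edgeR adjusted p = 0.0187). Mrps36 stood at 1.56, 1.90 and 1.73 against 2.09, 1.53 and 2.20, with overlap.

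**Figure D5:**
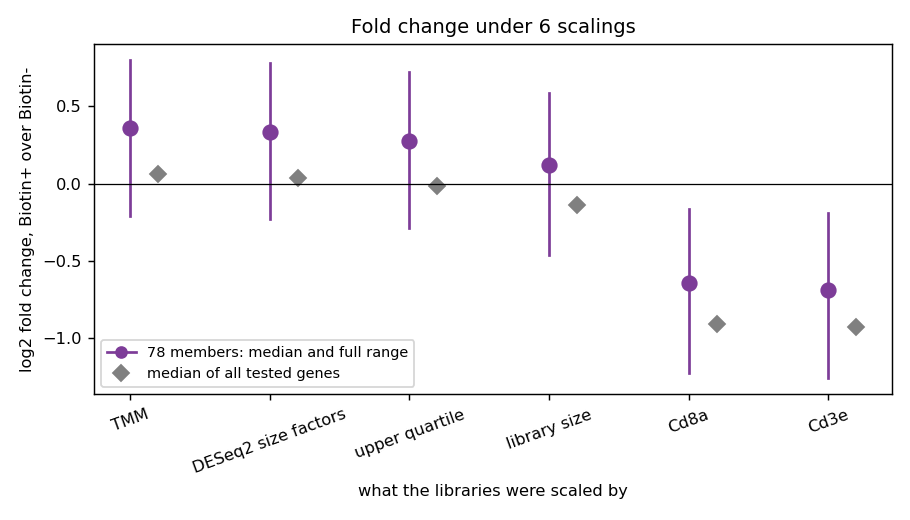
Log2 fold change (Biotin+ over Biotin-, vertical axis) under 6 ways of scaling the libraries, with the median of the 78 members as a circle, their full range as a line and the median of the 13360 tested genes as a diamond. The members' median moves from 0.36 with TMM to -0.64 with Cd8a and -0.69 with Cd3e, and lies above the median of all genes under each of the 6. Scaling shifts all genes nearly alike, so the 6 are not separate evidence for that position.

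Other parts of the same machinery were read from lists. Of 5 mitochondrial ribosomal proteins with other symbols, 0 passed in edgeR and 0 with the replicate block (0 at an unadjusted p below 0.05, median log2 fold change 0.22), while 3 (60.0%) were lower relative to Cd8a, where 47.8% of all genes were. Dap3, a GTP-binding small subunit protein, measured 38.6, 63.4 and 53.1 CPM in Biotin+ and 57.6, 58.7 and 70.3 CPM in Biotin- (-0.27 ± 0.22 SE, edgeR adjusted p = 0.524). Aurkaip1 and Chchd1, also of the small subunit, had values of 0.39 ± 0.22 and 0.48 ± 0.37 (SE).

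Of 25 assembly and RNA modification factors 0 passed in edgeR, with 1 higher at an unadjusted p below 0.05 (Trub2, a pseudouridine synthase, 0.55 ± 0.23 SE) and a median of 0.15. Of 14 translation factors 0 passed, with 1 higher at an unadjusted p below 0.05 (Qrsl1, a subunit of the enzyme that completes glutamine-charged transfer RNA, 0.64 ± 0.27 SE) and a median of 0.10. Of 17 mitochondrial aminoacyl-tRNA synthetases 0 passed, with 0 at an unadjusted p below 0.05 and a median of 0.04. Of 8 genes for mitochondrial transcription and RNA stability 0 passed, again with 0 at an unadjusted p below 0.05, and the median was 0.22. Lrpprc, which keeps mitochondrial messenger RNAs stable, stood at -0.21 ± 0.19 and its partner Slirp at 0.47 ± 0.29 (log2 fold change ± SE). The replicate block called 0 genes in each of these 4 lists (17.6% of all genes). Over all genes 8.26% passed in edgeR, and 8.62% were higher and 13.9% lower at an unadjusted p below 0.05. Scaled to Cd8a, 6 (24%), 7 (50.0%), 9 (52.9%) and 2 (25%) members of these 4 lists, in the same order, were called lower, against 47.8% of all genes.

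Of 8 tested regulators of mitochondrial biogenesis 1 passed, Myc, a transcription factor of growth. It measured 45.6, 56.3 and 65.5 CPM in Biotin+ and 112, 139 and 176 CPM in Biotin-, with no overlap (log2 fold change -1.35 ± 0.23 SE, edgeR adjusted p = 0.00837; 0.0595 without both replicates 2). Nrf1, the factor of the NRF1 motif above, measured 58.8, 71.4 and 63.3 CPM against 49.4, 55.4 and 46.0 CPM (0.36 ± 0.19 SE, edgeR adjusted p = 0.295). For Gabpb1, a subunit of GABP, the value was 0.28 ± 0.19 (SE, edgeR adjusted p = 0.414). Scaled to Cd8a, 4 of the 8 regulators (50.0%, against 47.8% of all genes) were called lower.

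The messenger RNAs that this ribosome translates were counted for 13 genes of the mitochondrial genome, of which 10 were tested and 0 passed in edgeR, with 0 at an unadjusted p below 0.05 (median 0.12), while 7 (70.0%, against 47.8% of all genes) were lower relative to Cd8a. ND1, a complex I subunit, measured 1373, 2256 and 1393 CPM in Biotin+ and 1227, 1593 and 1382 CPM in Biotin- (0.26 ± 0.26 SE), and was again highest in Biotin+ replicate 2. Per member count there were 3.91, 3.04 and 3.44 counts of these genes in Biotin+ and 3.89, 5.17 and 3.75 in Biotin-, with overlap. COX1 had 98753 to 163086 counts per library, while COX2, COX3 and ATP6 had 47 to 107, so the level of the latter is not read here.

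Beside these lists, 0 of 80 tested cytosolic ribosomal proteins passed (2 at an unadjusted p below 0.05, median log2 fold change 0.36). Of 79 nuclear respiratory chain subunits 1 was higher (24 at an unadjusted p below 0.05, median 0.47). Over all genes 1.53% were called higher and 6.72% lower, and at an unadjusted p below 0.05 the shares were 8.62% and 13.9%. With the replicate block 4 (5.0%) and 10 (12.7%) were higher, against 5.6% of all genes. Scaled to Cd8a 18 (22.5%) and 9 (11.4%) were lower, against 47.8% of all genes. Counts of cytosolic ribosomal proteins per member count were 49.3, 51.7 and 43.3 in Biotin+ and 47.1, 50.7 and 44.5 in Biotin-. Counts of nuclear respiratory chain subunits per member count were 3.96, 4.26 and 3.81 against 3.79, 3.93 and 3.61. Both ratios overlapped between the groups, although the respiratory chain ratio was higher in the Biotin+ library within each number, and replicate 2 was the highest and replicate 3 the lowest of each group in both.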

How the data were processed

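Poly-A RNA of 3 Biotin+ and 3 Biotin- libraries was measured. The authors deposited raw read counts per gene symbol, and the submitters' processing notes name Trim Galore 0.6.7, STAR 2.7.10a, Picard 1.14, featureCounts 2.0.1 and GRCm39, without roles. For the annotation, the strand setting and multiply mapped reads, nothing is given in the sources used here. The reads carry no stated molecular identifiers, so a count is not a count of molecules.

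The test was edgeR 4.0.16 in R 4.3.3 (filterByExpr, TMM, robust glmQLFit, group alone), with Benjamini-Hochberg adjustment over 13360 genes and a threshold of 0.05. DESeq2 1.42.0 and limma 3.58.1 were alternatives, and the code was tested on simulated data. SE is the log2 fold change over the root of F, and 95% intervals use the same SE. In fits relative to Cd8a or Cd3e, that gene's counts replaced the library sizes. Transcript lengths, 75-base windows and exon overlaps came from GENCODE M21 (GRCm38), and symbols and promoters from RefSeq on GRCm38.p6.

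Deviations from group means correlated at 0.366, 0.263 and 0.393 for libraries with the same number and at -0.0721 to -0.276 otherwise. On this ground the numbers, which come from the titles, were taken to pair the libraries. No label says that they do, and the rule uses the same data as the blocked fits. Deviations cancel within a group, so positive values for same numbers push the others negative, and the latter are not separate evidence. Members and lists were chosen with earlier results of these data known. Members named are the 5 highest and 5 lowest by fold change, the 5 highest and 3 lowest by level, the Mrps18 paralogs and Mrpl12, and up to 3 genes of each list by smallest p. Mrpl52, COX1, COX2 and COX3 were named after their values were seen.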

Additional observations from a re-analysis of the deposited data

How the results depend on the processing

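Over 22 alternatives, other scalings included, the number of members called higher was 0 in 19, 1 with the DESeq2 Wald test, 3 with the replicate block and 0 to 1 when single libraries or same-numbered pairs were left out. The number called lower was 0 except with scaling to Cd8a (15), Cd3e (19), both (19), and the replicate block with Cd8a (29) or Cd3e (60). The median log2 fold change was -0.641, -0.688 and -0.652 with these 3 scalings and -0.626 and -0.655 in the 2 blocked fits, and 0.058 to 0.449 when libraries or pairs were left out, the lowest values being those without Biotin+ replicate 2 (0.096) and without both replicates 2 (0.058). Relative to Cd8a, 29 members were lower with the replicate block and 0 to 52 without single libraries; relative to Cd3e, 60 and 0 to 44. These leave-out fits relative to Cd8a and Cd3e were chosen after seeing the data, and the share of all genes called lower in them was not counted. The cause of these differences was not tested, apart from the scaling itself.

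Members named only for their subunit or for a missing promoter window are left out of what follows. Of the other named members, those whose log2 fold change turned from positive to a called decrease under the T cell gene scalings were as follows. Mrpl9 was at -0.888 (Cd8a), -0.931 (Cd3e), -0.9 (both), -0.893 (replicate block, Cd8a) and -0.928 (replicate block, Cd3e). In the blocked fits Mrpl1 was at -0.942 (Cd8a) and -0.976 (Cd3e), Mrps18a at -0.763 and -0.795, and with Cd3e alone Mrpl33 was at -0.541, Mrpl12 at -0.654, Mrpl47 at -0.811 and Mrpl52 at -0.6. Among other genes ND1 was at -0.712, -0.767 and -0.727 (Cd8a, Cd3e, both) and -0.755 (replicate block, Cd3e), and ND4 at -0.783, -0.83 and -0.796, with -0.791 and -0.825 in the blocked fits. Gabpb1 was at -0.677 and -0.712 in the blocked fits, and in that with Cd3e Aurkaip1 was at -0.605, Mtg2 at -0.624, Fars2 at -0.731 and Nrf1 at -0.621. Cd8a, called higher with TMM, was below 0 but not called at -0.029 (Cd3e), -0.008 (both) and -0.035 (replicate block, Cd3e). The members had 138 to 2416 counts per gene and library. The parts of depth and of spread between libraries in these values were not tested.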
